A study of Caenorhabditis elegans with 2 samples.

Results

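The 10 genes described here encode enzymes of the citric acid cycle and their close relatives in C. elegans: the isocitrate dehydrogenase genes idh-1, idh-2, idha-1, idhb-1, idhg-1 and idhg-2, the malate dehydrogenase gene mdh-2, the citrate synthase gene cts-1, the aconitase gene aco-2 and the fumarase gene fum-1. They are 10 of 19973 nuclear protein-coding genes, and all 10 were found in the annotation by name. They were chosen by their place in the pathway and with the binding data known: idhg-1 had been seen among the strongest regions of the experiment. Their levels are therefore given as a description, with no p-value, and their counts stand beside the share of all protein-coding genes that meets the same rule. The data are chromatin immunoprecipitation with sequencing (ChIP-seq) of F13H6.1, the zinc finger protein encoded by bcl-11, fused at its C terminus to GFP and FLAG and precipitated with anti-GFP antibody. The animals were hermaphrodite late embryos of strain OP471, genotype unc-119(tm4063) III; wgIs471, taken 5 hours after synchronization by egg bleaching. The labels name a stable transgene insertion, and the promoter that drives it is not given there. There were 2 biological replicates of this 1 group and no second condition. Whole embryos were used, so signal from different cell types is averaged, and lists of enriched regions hold no expression values against which a cell type could be checked.

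The citric acid cycle runs in the mitochondrial matrix. Citrate synthase joins acetyl-CoA to oxaloacetate, aconitase turns citrate into isocitrate, and the NAD-dependent isocitrate dehydrogenase, built from alpha, beta and gamma subunits, oxidizes isocitrate to 2-oxoglutarate. Later steps pass through succinyl-CoA, succinate, fumarate and malate back to oxaloacetate. Separate NADP-dependent isocitrate dehydrogenases, one cytosolic and one mitochondrial, make NADPH from the same reaction.

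The lists on the ce11 build (WBcel235) give 19517 regions for replicate 1, 21972 for replicate 2 and 21824 for the pooled reads. The authors kept 1065 pooled regions, 4.88% of them, after a test of how well region ranks hold between replicates (the irreproducible discovery rate). These 1065 had the highest signals of the pooled list, from 82.1 upward, and are called thresholded below. Signal is the value that the authors' peak caller gave each region. Its scale is not stated, so regions are compared by rank within a list, with rank 1 the highest. The number of reads per library is unknown from these lists, and control libraries were not analysed here. A region was given to a gene when its summit lay between 2000 bp upstream of the gene and the gene's end.

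The DNA under the 3 strongest regions of the 10 genes is shown first, since the results turn on the start of idhg-1 and on where the cts-1 and aco-2 summits lie relative to neighbouring genes. All are on chromosome III and are read 5′ to 3′ on the plus strand of WBcel235 (RefSeq genome). The idhg-1 sequence, chrIII:4568591-4568797, runs from the left edge of the region to the annotated idhg-1 start. The cts-1 sequence, chrIII:10216834-10216954, and the aco-2 sequence, chrIII:7973383-7973503, hold 60 bases on each side of the pooled summit. Capitals mark the 6-letter words GCGGCG and CACGTG, which were picked after the sequences had been read. The aco-2 stretch holds neither.
idhg-1: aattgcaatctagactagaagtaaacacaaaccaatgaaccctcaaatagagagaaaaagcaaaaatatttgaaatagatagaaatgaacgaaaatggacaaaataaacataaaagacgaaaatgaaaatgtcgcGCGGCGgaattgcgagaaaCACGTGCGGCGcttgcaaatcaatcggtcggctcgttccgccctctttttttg
cts-1: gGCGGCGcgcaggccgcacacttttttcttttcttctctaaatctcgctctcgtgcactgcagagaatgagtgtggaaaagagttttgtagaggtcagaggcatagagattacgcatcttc
aco-2: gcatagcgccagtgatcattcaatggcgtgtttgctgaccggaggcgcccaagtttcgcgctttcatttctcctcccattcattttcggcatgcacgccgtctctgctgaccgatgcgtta

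Of the 10 genes, idhg-1 and cts-1 had a thresholded region, against 5.78% of all protein-coding genes. For idhg-1 this was 1 of the highest regions of the whole experiment, and for cts-1 a region in the lower part of the thresholded list. A further 6 genes, idh-1, idh-2, idha-1, idhb-1, mdh-2 and aco-2, had pooled regions below the threshold alone. The remaining genes, idhg-2 and fum-1, had none in the pooled list and only weak ones in 1 replicate. Counted by list, 8 of 10 genes had a pooled region (55.8% of all protein-coding genes), 8 a replicate 1 region (54.2%) and 9 a replicate 2 region (57.4%). Only idhg-1 had regions among the 1065 highest of both replicates, against 4.17% of all protein-coding genes. The genes held 13 pooled regions, 0.294 per kb of gene window, beside 0.227 per kb over all protein-coding genes, with overlapping windows counted for each gene. The 32 other genes of the pathway, described below, held more, 0.354 per kb.

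**Figure D1:**
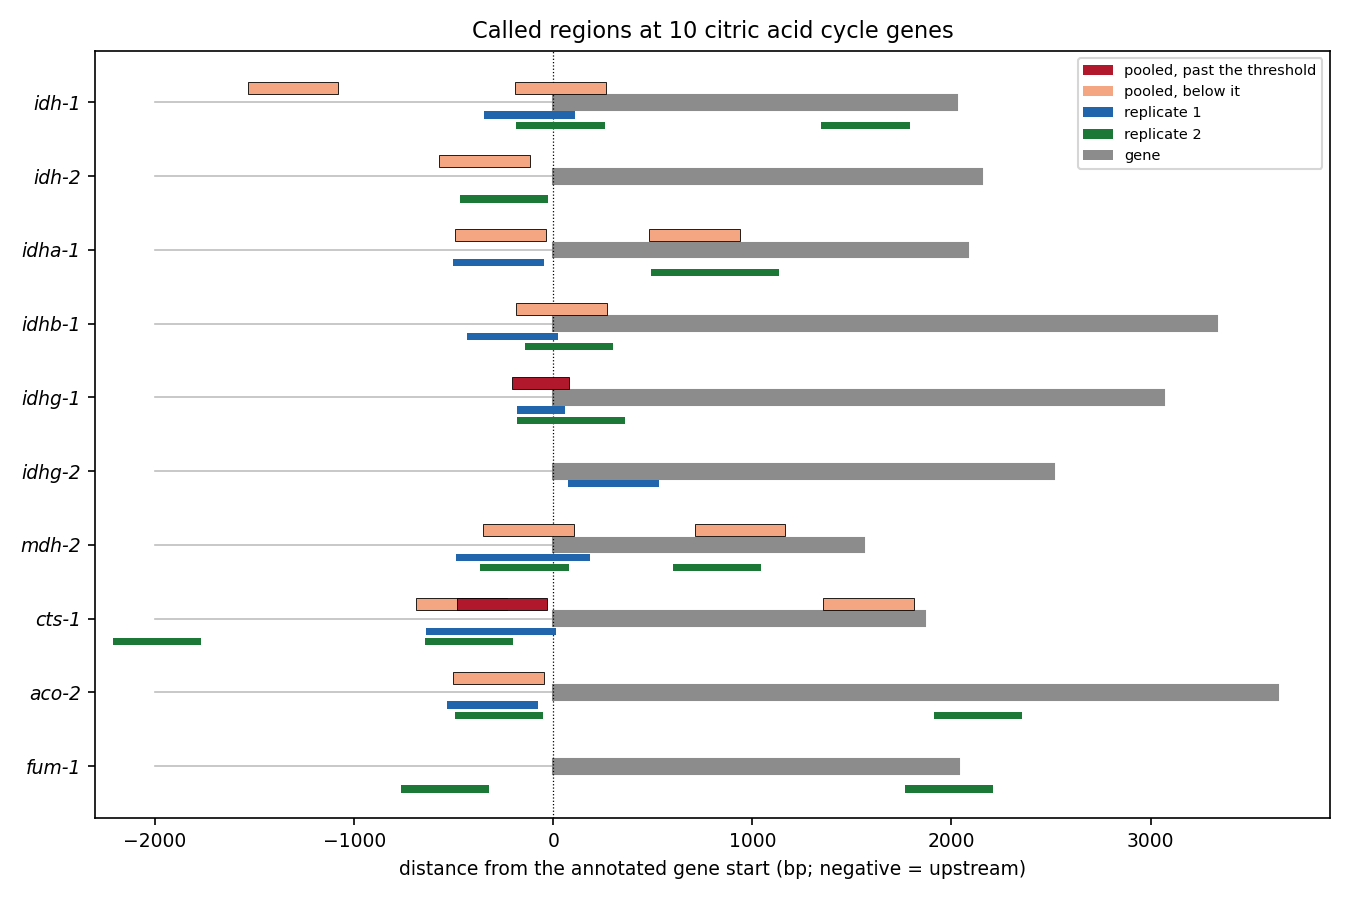
Called regions at the 10 genes, each row drawn from 2000 bp upstream of the gene to its end, with the x axis in bp from the annotated gene start and transcription to the right. Boxes above each line are pooled regions (dark red past the authors' threshold, light below it) and bars below are regions of replicates 1 and 2; the thresholded boxes lie at the starts of idhg-1 and cts-1.

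The gamma subunit gene idhg-1 (WBGene00009440, III, 4568797 to 4571865, plus strand) carried the highest region of the 10 genes. The region ran from 4568591 to 4568878, 288 bp, with its summit in intergenic DNA 64 bp upstream of the idhg-1 start. It had a pooled signal of 416 and pooled rank 12. Replicate 1 gave a signal of 209 and rank 12, with a summit 52 bp upstream of the start, and replicate 2 gave 204 and rank 16, with a summit at the pooled position. Both replicates thus placed it among their 16 highest regions, with summits 12 bp apart. Counting each gene by its best region, 12 of 19973 protein-coding genes, idhg-1 included, stood as high in the pooled list, 12 in replicate 1 and 17 in replicate 2. Replicate 2 listed a second, weak region over the same start, with its summit 138 bp inside the gene (signal 26.8, rank 3696), which had no separate counterpart in the pooled list.

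The intergenic DNA here separates idhg-1 from mlcd-1, which encodes malonyl-CoA decarboxylase and is transcribed in the opposite direction. The summit lay 603 bp upstream of the mlcd-1 start, so it was far nearer to idhg-1, although the region also falls in the window of mlcd-1. No noncoding gene had a start nearer than cel-mir-4813, 2907 bp away. Of the 4 regions next to it in pooled rank, 1 was also intergenic and upstream of a coding gene, and the rest were intronic. Just above it, rank 10 (signal 434) lay in an intron, 37 bp from the start of the snoRNA gene C51F7.4, with F55C5.17 the nearest coding start, and rank 11 (signal 432) lay in an intron, 81 bp from the start of the noncoding F47F6.13, with lin-42 the nearest coding start. Just below it, rank 13 (signal 413) lay 51 bp upstream of the snoRNA gene T03F7.8, with cutl-18 the nearest coding start, and rank 14 (signal 408) lay 556 bp upstream of eel-1. Their replicate ranks spanned 9 to 16 in replicate 1 and 11 to 21 in replicate 2, close to those of idhg-1. Of these 5 regions, the idhg-1 region had its summit nearest to a protein-coding start.

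The remaining subunits of the same enzyme did not show such a region. For the beta subunit gene idhb-1 (WBGene00007993, X, minus strand) the pooled region from 14173795 to 14174250 had its summit 40 bp inside the gene, in its UTR, with a signal of 45.6 and rank 4029. Replicate 2 gave it 34.5 and rank 1917, and replicate 1 gave 18.3 and rank 9597, with a summit on the other side of the start, 204 bp upstream. The alpha subunit gene idha-1 (WBGene00009664, I, minus strand) had a region 267 bp upstream with a pooled signal of 31.6 and rank 10268, found in replicate 1 (20.5, rank 6957) and not in replicate 2. The noncoding F43G9.16 had a start nearer to that summit, at 203 bp. A second idha-1 region lay in a coding exon 710 bp from the start (26.3, rank 15698), found in replicate 2 (14.9, rank 16865) and not in replicate 1. Another replicate 2 region, with its summit in an intron 914 bp from the idha-1 start, overlapped it as well (14.8, rank 17038). The second gamma subunit gene, idhg-2 (WBGene00016266, I, plus strand), had no pooled and no replicate 2 region. Its single region was an intronic one of replicate 1, 303 bp from the start, with a signal of 16.5 and rank 12554. Among the genes of the NAD-dependent enzyme the order by best pooled rank was idhg-1, idhb-1, idha-1, with idhg-2 absent. The order of idhb-1 and idha-1 was not the same in the replicates, since idhb-1 was higher in replicate 2 and idha-1 in replicate 1.

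The NADP-dependent isocitrate dehydrogenase genes had weak regions. The cytosolic enzyme's gene idh-1 (WBGene00010317, IV, minus strand) had a region from 9440843 to 9441298 with its summit 36 bp inside the gene, in its UTR. Its pooled signal was 37.0 (rank 6894), with 14.6 in replicate 1 (rank 16867) and 26.0 in replicate 2 (rank 4047). The replicate 2 summit was at the pooled position. The replicate 1 summit lay 157 bp away, 121 bp upstream of the idh-1 start. A second pooled region 1308 bp upstream of idh-1 (22.5, rank 21200) was found in neither replicate, the 1 such region among the 13. Replicate 2 also listed an intronic region 1568 bp from the idh-1 start (19.8, rank 8528), which had no pooled counterpart. The mitochondrial enzyme's gene idh-2 (WBGene00007942, X, plus strand) had a region 344 bp upstream, with a pooled signal of 33.3 and rank 9018. It was found in replicate 2 (19.8, rank 8567) and not in replicate 1. The pooled idh-2 summit was nearer to the start of its divergent neighbour C34F6.7, at 186 bp, than to that of idh-2. The replicate 2 summit, 97 bp away and 247 bp upstream of idh-2, was nearer to idh-2 instead.

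**Figure D2:**
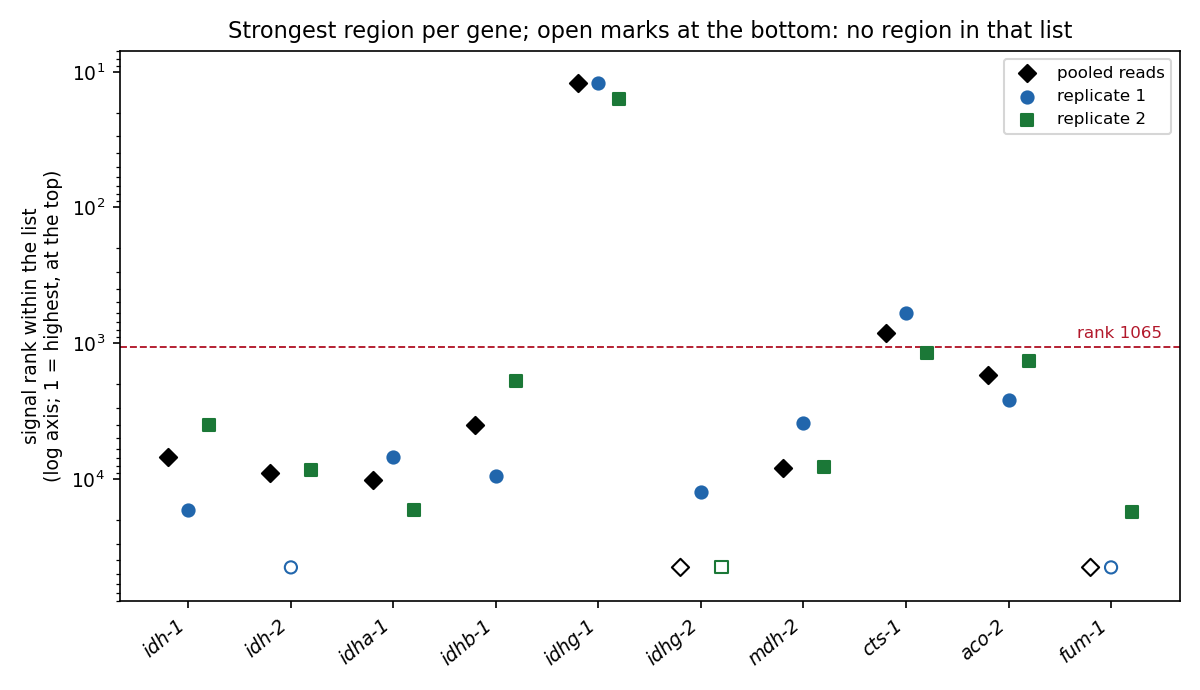
Rank of the strongest region in each gene's window in the pooled list and in each replicate, on a log axis with rank 1 at the top. The dashed line marks rank 1065, the size of the thresholded list, and open marks at the bottom stand for genes with no region in that list; idhg-1 lies between ranks 12 and 16 in all 3 lists, and cts-1 lies on the lower side of the line in replicate 2 and on the upper side in the other lists.

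The windows of the citrate synthase and aconitase genes held the next highest regions. For cts-1 (WBGene00000833, III, minus strand) the thresholded region ran from 10216666 to 10217121, with its summit 259 bp upstream of the start, a pooled signal of 91.7 and rank 844. An overlapping pooled region below the threshold (52.0, rank 2944) had its summit 461 bp upstream. Replicate 1 listed a summit 212 bp upstream with a signal of 53.1 (rank 605) and another 413 bp upstream with 19.7 (rank 7809). Replicate 2 listed a summit 422 bp upstream, with 42.3 (rank 1177), and none at the nearer position. The position nearer to cts-1 was thus the stronger in replicate 1, while the strongest replicate 2 summit was at the farther one, 163 bp from the thresholded summit. Both positions lay in the intergenic DNA between cts-1 and rde-4, a gene of the RNA interference pathway that is transcribed in the same direction and ends 408 bp from the thresholded summit. Of the 2 thresholded regions at the 10 genes, that of cts-1 was the weaker by pooled signal. The best cts-1 rank in replicate 2 lay outside the 1065 highest of that replicate. The other regions of the cts-1 window were weak. One lay in the UTR 1583 bp from the start (pooled signal 25.6, rank 16505). It was overlapped in replicate 1 by a region whose summit was 410 bp away (14.8, rank 16428). Another, in replicate 2 alone, lay in a coding exon 1993 bp upstream, inside rde-4 near its start (15.6, rank 15078).

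The mitochondrial aconitase gene aco-2 (WBGene00000041, III, plus strand) had the strongest region of the 10 genes outside the threshold. It ran from 7973215 to 7973670, with a pooled signal of 65.8 and rank 1714. Replicate 1 gave it 28.8 (rank 2625) and replicate 2 gave it 39.9 (rank 1361), with summits 32 bp and 1 bp from the pooled one. The summit lay 274 bp upstream of aco-2 and 57 bp upstream of eef-1B.1, a gene of translation elongation factor 1B that is transcribed away from aco-2. The noncoding gene F54H12.9 also spanned the summit. This region cannot be given to 1 of the 3 genes by position alone. A replicate 2 region in a coding exon of aco-2, 2133 bp from the start, was weak (13.9, rank 19414) and had no pooled counterpart.

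**Figure D3:**
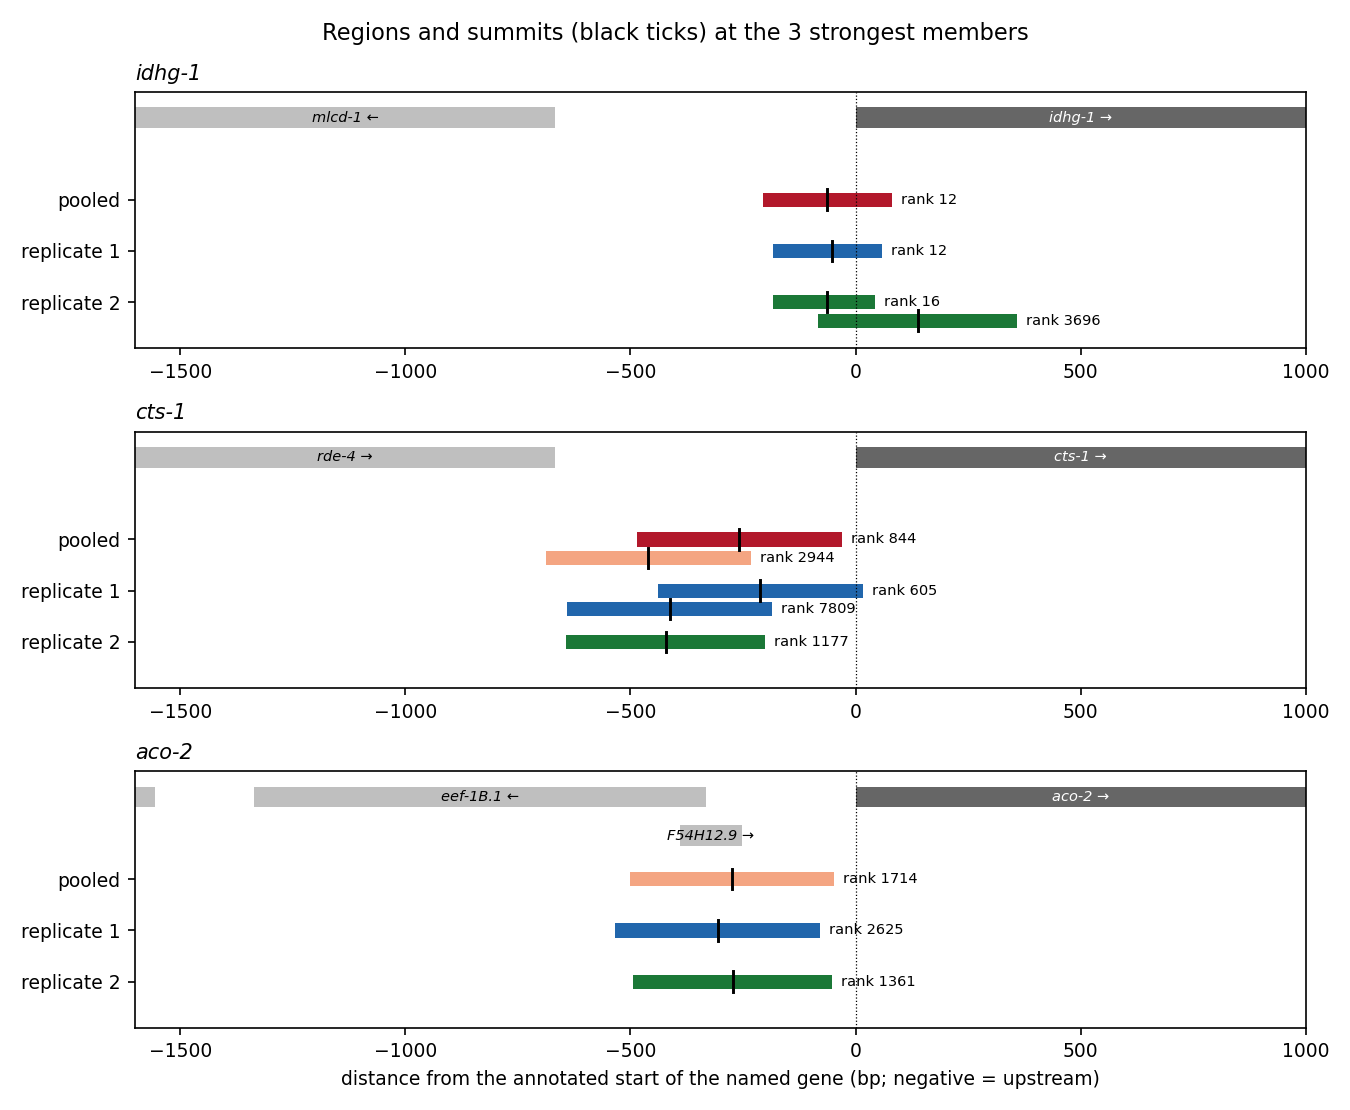
Regions (bars) and summits (black ticks) around the starts of idhg-1, cts-1 and aco-2, with the x axis in bp from the start of the named gene and neighbouring genes in grey with arrows for their direction. The idhg-1 summits of all 3 lists lie next to each other, the strongest cts-1 summits of the replicates lie apart, and the aco-2 region lies over the start of eef-1B.1.

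Of the genes for late steps of the cycle, mdh-2 had weak regions and fum-1 had none in the pooled list. The mitochondrial malate dehydrogenase gene mdh-2 (WBGene00003162, III, minus strand) had a region 124 bp upstream with a pooled signal of 34.4 and rank 8288. Replicate 1 listed it with 25.1 (rank 3873) and had a further summit 261 bp upstream (14.8, rank 16368). Replicate 2 listed it with 13.1 (rank 21922), close to the end of its list. A second mdh-2 region in a coding exon 937 bp from the start (31.2, rank 10553) was found in replicate 2 (20.1, rank 8228) and not in replicate 1. The fumarase gene fum-1 (WBGene00001503, III, plus strand) had no pooled and no replicate 1 region. Its 2 replicate 2 regions, both had a signal of 14.6. They lay 1990 bp from the start, in a UTR (rank 17625), and 544 bp upstream of it, in the UTR of another gene (rank 17633). Between idhb-1, idh-1, mdh-2, idh-2 and idha-1, which follow each other in best pooled rank, the replicates did not keep 1 order.

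Taken by region, 7 of the 13 pooled regions overlapped a region of both replicates, beside 48.5% of all pooled regions, and 1 overlapped neither, beside 6.69%. A further 2 overlapped replicate 1 alone and 3 replicate 2 alone. The strongest region of each of the 8 genes lay within 500 bp of a transcript start of that gene, 6 of them upstream of it. Of 26 other genes of the pathway with a pooled region, described below, 13 had their strongest region that near. For 17 of the 26 it lay upstream of the gene. By class, 8 of the 13 summits were intergenic, 3 in UTRs and 2 in coding exons, and none was at a small RNA gene (nuclear tRNA, snRNA or snoRNA, up to 100 bp away). At the other genes of the pathway 21 of 56 summits were intergenic, 21 in coding exons, 13 in introns and 1 in a UTR. The same shares over all genes or all pooled regions are not given here. The idhg-1 region was the only 1 of the 13 not 456 bp wide. That width was shared by 99.2% of all pooled regions and 83.9% of thresholded ones.

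Base composition around the summits was nearer to that of all pooled regions than to that of thresholded ones. Windows of 101 bases around the 13 summits had a median GC content of 43.6% (range 32.7 to 53.5%), beside 50.5% over thresholded and 42.6% over all pooled regions. At idhg-1 the 101 bases held 46.5% GC against 34.7% over its whole region, so the GC-richer bases lay around the summit. TGACCA, the word bound by mammalian BCL11A, was searched on both strands and occurred in none of the 13 regions, beside 13.6% of thresholded and 14.6% of all pooled regions. The word GCGGCG, on either strand, occurred in 5 of the 13 regions: at 2 places in the idhg-1 region, at 2 in the upstream mdh-2 region, and once each in the thresholded cts-1 region, the downstream cts-1 region and the idh-1 region at its start. It was found in 23.9% of thresholded and 15.3% of all pooled regions. At idhg-1 its copies began 71 bp and 47 bp upstream of the start. CACGTG, the core of the E-box that many basic helix-loop-helix proteins bind, began 52 bp upstream of idhg-1 and shares its last base with the second GCGGCG. It occurred in 2 of the 13 regions, the other being the upstream idh-1 region, and in 8.83% of thresholded and 9.25% of all pooled regions. GCGGCG and CACGTG were picked after the idhg-1, cts-1 and aco-2 sequences had been read. Their counts include those regions and so are no test against the shares given. A match to a word is a description of the sequence and shows no binding.

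The other genes of the pathway were taken from a list of 32 genes, 14 of them for further cycle enzymes and 18 for entry, exit and side reactions. Thresholded regions lay at 5 of the 32 (15.6%, beside 5.78% of all protein-coding genes), and 4 of these, ogdh-1, dlst-1, sucl-1 and suca-1, are genes of the steps that follow isocitrate dehydrogenase. Of the 32, 26 (81.2%) had a pooled region and 4 (12.5%) had regions among the 1065 highest of both replicates, beside 55.8% and 4.17% of all protein-coding genes. The 2-oxoglutarate dehydrogenase complex takes the product of isocitrate dehydrogenase. Its dihydrolipoyl succinyltransferase gene dlst-1 had a region 137 bp upstream of its start (V, 6709010 to 6709465, signal 113, rank 524), ranked 518 in replicate 1 and 688 in replicate 2. The noncoding W02F12.11 had a start nearer to the dlst-1 summit, at 115 bp. The gene of the complex's first subunit, ogdh-1, had a pair of overlapping thresholded regions in an intron. The stronger had signal 113 and rank 526 (IV, 4701973 to 4702428), 1810 bp inside the gene and 324 bp upstream of a later transcript start. The ogdh-1 ranks in the replicates were 400 and 857. The dihydrolipoyl dehydrogenase gene dld-1 had a region of signal 37.0 and rank 6844, 335 bp upstream of its start, found in replicate 1 alone. The dld-1 summit was nearer to the starts of nspg-9 (222 bp) and the noncoding LLC1.120 (138 bp).

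Succinyl-CoA ligase makes succinate from succinyl-CoA. The alpha subunit gene sucl-1 had a region 358 bp upstream (X, 14753440 to 14753895, signal 111, rank 548), ranked 559 in replicate 1 and 618 in replicate 2. The beta subunit gene suca-1 had a region 194 bp upstream (X, 10900080 to 10900535, signal 103, rank 649), ranked 1265 in replicate 1, outside its 1065 highest, and 413 in replicate 2. The noncoding F47B10.12 had a start nearer to the suca-1 summit, at 86 bp. For sucl-2 there was no pooled region. The best region in the sucg-1 window had a signal of 56.3 and rank 2438. Its summit lay 1516 bp upstream of sucg-1, in a coding exon of the neighbour C50F7.5. Among the entry and exit genes only pdhk-2, for the kinase that inhibits pyruvate dehydrogenase, was thresholded (III, 8741407 to 8741862, signal 143, rank 290). Its summit lay 223 bp upstream of the start, with rank 508 in replicate 1 and 218 in replicate 2. That is 1 of 18 such genes (5.56%) and 4 of the 14 further cycle genes (28.6%). None of the 6 thresholded regions at these 5 genes ranked as high as the idhg-1 region.

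**Figure D4:**
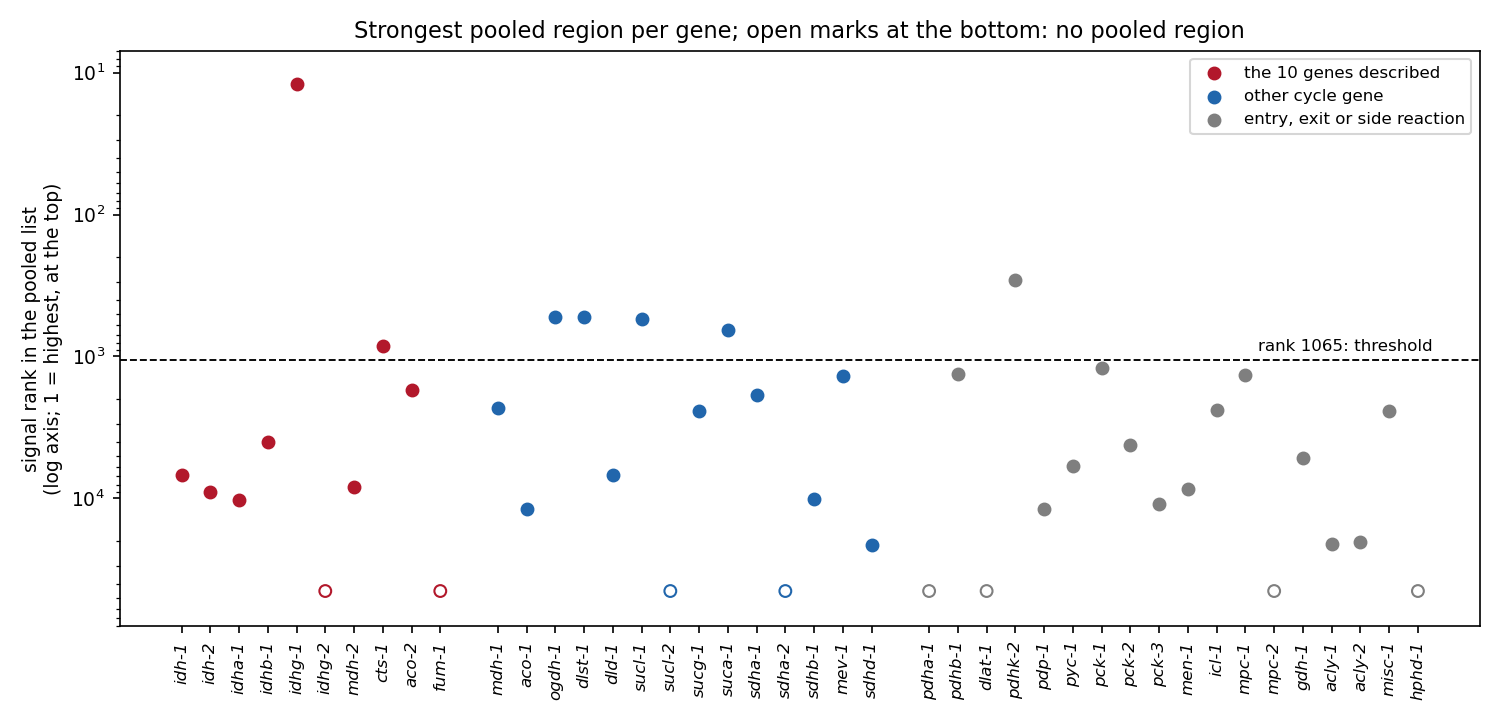
Rank of the strongest pooled region in each gene's window for the 10 genes described, the 14 further cycle genes and the 18 entry, exit and side genes, on a log axis with rank 1 at the top and open marks for genes with no pooled region. Only idhg-1 lies near the top, while cts-1, ogdh-1, dlst-1, sucl-1, suca-1 and pdhk-2 lie above the dashed line at rank 1065.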

How the data were processed

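The authors deposited lists of regions per replicate and for pooled reads, called permissively against a control, and a pooled list kept at a threshold on the irreproducible discovery rate, per the lists of files that go with the labels. For the aligner, peak caller, their versions and the threshold level, nothing was given in the sources used here. The deposited signal of each region was used only to rank regions within a list. Positions are 1-based on ce11, with genes from Ensembl release 115 (WBcel235). In the RefSeq genome of that build the coding sequences of 17 of 17 coding transcripts of the 10 genes began with ATG. The ce10 lists give no value here. Regions were matched between lists by an overlap of at least 1 bp. Replicate numbers come from the labels.

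The members and gene lists were chosen with earlier results of these data known. Named were the 10 genes, the genes with the nearest starts, other pathway genes with a thresholded region, the 2 regions on each side of idhg-1 in rank, and the members next to the threshold. Alternatives changed the gene window, the threshold, the replicate used and the match between lists. Counting was tested on simulated regions. Python 3.11.15, numpy 2.4.6, pandas 2.3.3 and matplotlib 3.10.9 were used.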

Additional observations from a re-analysis of the deposited data

How the results depend on the processing

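Of 33 alternatives over 7 results, 30 left the value within 1.5 times of that reported. Among the 532 highest thresholded regions 1 of the 10 genes, idhg-1, had a region, and 3 of the other 32 did. With the 1065 highest regions of a single replicate in place of the thresholded list, the 10 genes with a region numbered 1 without replicate 1, where cts-1 was lost, and 2 without replicate 2. The shares of all protein-coding genes under these rules are not given here, so these counts show only which genes were kept. The gene window made no difference to the 2 genes with a thresholded region (idhg-1 and cts-1 under each of 4 other windows). The number of the 10 genes with a pooled region fell from 8 to 6 when only the nearest coding start was counted. The rank of the idhg-1 region was 16 without replicate 1 and 12 without replicate 2. Replicate counterparts of the pooled regions at the 10 genes numbered 19 by overlap, and 14 when summits had to lie within 100 bp. No paired analysis was possible because there is 1 group. Depth per library is unknown, and a gene without a region may have held signal under the calling level of a list. No control library was analysed here, so binding as such was not tested.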

Other observations

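Several other genes of the pathway stood just below the threshold, named after their values were seen. The phosphoenolpyruvate carboxykinase gene pck-1 had an intronic region of signal 77.5 and rank 1204, ranked 5824 in replicate 1 and 603 in replicate 2, a wide gap between replicates. For pdhb-1, the beta subunit gene of pyruvate dehydrogenase E1, the region had a signal of 74.2 and rank 1319, but its summit lay in the UTR of the neighbour dyf-3, 21 bp from that gene's start and 462 bp upstream of pdhb-1. The mitochondrial pyruvate carrier gene mpc-1 had an intronic region of 73.9 and rank 1343, within 100 bp of the small RNA gene R07E5.16. For mev-1, the cytochrome b subunit gene of succinate dehydrogenase, the region (73.4, rank 1366) lay 115 bp upstream of its start and 144 bp upstream of that of its neighbour jmjd-4. The lowest thresholded signal was 82.1.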
